A study of Homo sapiens with 14 samples.

Results

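Ferrostatin-1, a synthetic antioxidant that traps lipid radicals and blocks ferroptosis, was added to HT-29 cells exposed to TNF, and the transcriptome was compared with that of cells given TNF without an inhibitor. The comparison was between 5 of the 14 libraries of the series, 3 of TNF with ferrostatin-1 and 2 of TNF. It covered the 22179 genes that passed a filter on low counts. HT-29 is an established human colorectal carcinoma line, labelled wild type. Cells of the TNF group received human recombinant TNF-a at a labelled 100 ug per ml for 72 h to induce apoptosis, and those of the other group received the same TNF together with 20 uM ferrostatin-1 for 72 h. For single comparisons, further groups were used, namely 3 control libraries in medium with 0.1% DMSO, 2 libraries of 20 uM ferrostatin-1 without TNF for 72 h, and 2 libraries of TNF with 20 uM liproxstatin-1, a related ferroptosis inhibitor. The remaining 2 libraries, of 20 uM liproxstatin-1 without TNF for 72 h, entered no comparison. The spread between libraries was estimated from all 14. The labels name DMSO for the controls alone, so the vehicle of the TNF group is unknown. The series describes its replicates as technical, and p-values therefore measure only the spread between these libraries.

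TNF binds TNFR1 and drives both NF-kB target genes and, through caspase-8, apoptosis. Ferroptosis is a different form of death, in which iron-dependent peroxidation of membrane lipids outruns repair by GPX4. The aryl hydrocarbon receptor (AHR) is a ligand-activated factor that binds DNA at a GCGTG core and induces CYP1A1, the liver X receptors (LXR) induce sterol export genes such as ABCA1, and NRF2 induces detoxifying reductases. ATF4 is the effector of the integrated stress response, and acts at composite elements with the core TGATGNAA.

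The promoters of 3 genes that fell are shown because their known regulators act through these cores. They are from RefSeq on GRCh38.p14 and give the 250 bases before the annotated start, 5′ to 3′ on the gene's strand. Capitals mark each match on either strand (GCGTG or CACGC in the first and second, TGATGNAA or TTNCATCA in the third). CYP1A1 (ENSG00000140465) and ALDH1A3 (ENSG00000184254) belong to the AHR list, and CHAC1 (ENSG00000128965) to the ATF4 list.
CYP1A1 promoter, chr15:74725529-74725778, - strand: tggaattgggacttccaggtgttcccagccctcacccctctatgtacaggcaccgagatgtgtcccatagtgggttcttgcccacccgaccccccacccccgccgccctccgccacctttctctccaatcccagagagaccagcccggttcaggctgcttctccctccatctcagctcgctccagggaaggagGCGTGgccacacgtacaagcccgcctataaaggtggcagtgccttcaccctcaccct
ALDH1A3 promoter, chr15:100879581-100879830, + strand: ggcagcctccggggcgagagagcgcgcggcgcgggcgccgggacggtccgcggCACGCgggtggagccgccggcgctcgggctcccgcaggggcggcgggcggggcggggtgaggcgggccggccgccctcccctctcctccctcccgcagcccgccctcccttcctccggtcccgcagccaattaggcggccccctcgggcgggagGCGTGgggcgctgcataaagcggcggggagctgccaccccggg
CHAC1 promoter, chr15:40953221-40953470, + strand: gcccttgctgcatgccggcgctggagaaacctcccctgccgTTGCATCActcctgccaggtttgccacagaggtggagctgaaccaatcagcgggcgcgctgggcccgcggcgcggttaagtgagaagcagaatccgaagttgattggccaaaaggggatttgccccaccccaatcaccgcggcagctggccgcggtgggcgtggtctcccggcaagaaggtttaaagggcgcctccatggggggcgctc
Over the full windows of 300 bases, which add 50 bases after the start, GCGTG was present in 8 of the 10 AHR-list promoters found in the table and in 36.5% of all 35116 promoters. The ATF4 core was present in 6 of 32 ATF4-list promoters and in 3.62% of all. DDIT3, whose mRNA also fell, had no match to the ATF4 core in its window. Each match is a description of the sequence and not a measured binding site.

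The 2 TNF libraries, numbered 1 and 3 as in the deposited table, differed from each other more than the 3 libraries with ferrostatin-1 did. Among 14892 genes, 2292 lay at least 2-fold apart between TNF libraries 1 and 3, against 263 to 341 between any pair of the 3 libraries with ferrostatin-1 and 488 to 590 between TNF library 3 and any of those. The total counts were 74780451 and 74458684 in the TNF libraries and 59913850 to 69214502 with ferrostatin-1. Exon length moved with the difference. Genes with a mean count of at least 50 were split by exon length into 4 equal groups. The median gene of the shortest group was 0.19 (log2) higher in TNF library 1 than in library 3, and the median gene of the longest group (7076 bases or more) was -0.29. Of the 9 colon epithelium markers, none was at 0 in any of the 5 libraries. Their summed level, in TMM-scaled counts per 1e6 counts (CPM), was 11702 to 14057 with TNF and 9386 to 10223 with ferrostatin-1 added. KRT8 and KRT18 were the largest parts of that sum (7362 and 4277 CPM in TNF library 1). Of the 9, 4 were called lower, beside 3.75% of all tested genes, and none once exon length and GC content were offset. KRT20 was higher in all 3 libraries with ferrostatin-1 added (329 to 382 CPM against 304 and 309). VIL1 and LGALS4 overlapped between the groups. PTPRC, which encodes the leukocyte antigen CD45, was at 0 in all 5. Some other members of the leukocyte list had counts. LYZ stood at 956 and 847 CPM with TNF and at 990 to 1136.5 CPM with ferrostatin-1 added. CD68 and CD14 were also above 0 in all 5 libraries. None of the 6 tested members of that list was called. Calls were therefore also tested against each TNF library alone. Such a fit holds 1 TNF library and takes its spread from the other groups. It leaves out the difference within the TNF pair, so its calls do not measure that difference.

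Adding ferrostatin-1 to TNF changed 1224 of 22179 genes (5.52%) at an adjusted p below 0.05, by edgeR's quasi-likelihood test in a model of all 6 groups. Of these, 392 were higher (1.77%) and 832 lower (3.75%), and 342 moved at least 2-fold, 220 up and 122 down. Counts of called genes in the lists below are to be read beside these shares. With an offset for exon length and GC content 2085 genes were called (9.40%), 935 higher (4.22%) and 1150 lower (5.19%). The count depended on the TNF library: 7373 genes were called against library 1 alone (31.2%) and 589 against library 3 alone (2.49%, with 1.54% higher and 0.947% lower). In all, 377 genes (1.70%) were called in the same direction with both libraries and against each, and these are described as holding against each library. They comprised 178 rises (0.803%) and 199 falls (0.897%), and 215 of the 377 also held against each library with that offset. All 1224 called genes had libraries with ferrostatin-1 lying wholly above or below both TNF libraries, a separation also seen upward in 19.7% and downward in 23.7% of all tested genes. Without any 1 of the libraries with ferrostatin-1 the total was 191, 69 or 103, with only the compared groups in the model it was 11, and limma's voom test with quality weights called 14. In bulk RNA, fewer cells that express a gene and less RNA per cell cannot be told apart.

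**Figure D1:**
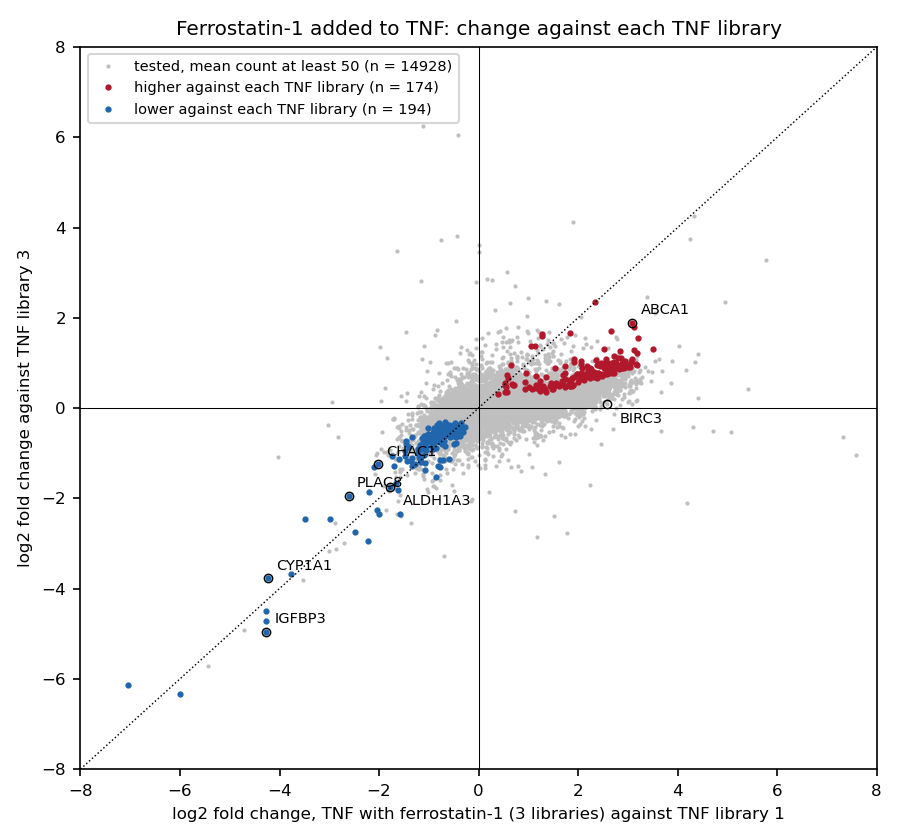
Each point is a gene with a mean count of at least 50 (n = 14928), placed by its log2 fold change (TNF with ferrostatin-1 over TNF) against TNF library 1 on the horizontal axis and against TNF library 3 on the vertical axis, with equality dotted. Colored points hold against each library (174 higher in red, 194 lower in blue). CYP1A1 and ALDH1A3 lie near the dotted line, BIRC3 lies to the right at 2.58 against library 1 and 0.09 against library 3, and 29 genes fall outside the axes.

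Several AHR target enzymes fell. CYP1A1, a monooxygenase that oxidizes polycyclic aromatic compounds, stood at 106 and 76.4 CPM in TNF libraries 1 and 3 and at 5.04, 5.67 and 6.03 CPM with ferrostatin-1. The groups were far from overlapping, and the level was 16.3-fold lower (log2 fold change -4.03 ± 0.21 SE, adjusted p = 3.49e-06). ALDH1A3, which makes retinoic acid from retinaldehyde, stood at 259 and 251 CPM with TNF and at 74.7, 77.3 and 74.1 CPM with ferrostatin-1. Its log2 fold change was -1.76 ± 0.09 (adjusted p = 3.49e-06), and both TNF libraries gave nearly the same size, -1.78 and -1.74. CYP1B1, a related monooxygenase, stood at 113 and 180.4 CPM against 61.7, 61.5 and 63.4 CPM. TNF library 1 was the lower of the TNF pair for CYP1B1, yet all 3 treated libraries lay below it (log2 fold change -1.24 ± 0.15, adjusted p = 0.00403). CYP2S1, named after its values were seen, was the fourth called member at -0.69 (adjusted p = 0.00895). Of 12 tested AHR targets, 4 fell and none rose, all 4 falls held against each TNF library, and the list's median log2 fold change was -0.62 beside -0.01 for all tested genes. TIPARP, an AHR-induced feedback inhibitor, was not called at -0.41 (adjusted p = 0.0978), but it was called with the offset and then held against each library (-0.68, adjusted p = 0.00271). NQO1, a quinone reductase, was not called at -0.24 (adjusted p = 0.22). CYP1A1 and ALDH1A3 were called in each of the 13 other settings tried.

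These genes were low with ferrostatin-1 alone as well. Without TNF, CYP1A1 was between 65.1 and 114 CPM in the 3 control libraries and at 5.94 and 6.71 CPM with ferrostatin-1, a 14.2-fold fall (log2 fold change -3.82, adjusted p = 2.51e-05). The effect with TNF minus that without was -0.20, with a 95% interval of -0.83 to 0.43. For CYP1B1 the same difference was 0.24 (-0.24 to 0.71), and for ALDH1A3 it was -0.40 (-0.67 to -0.13), with an adjusted p of 0.147.

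**Figure D2:**
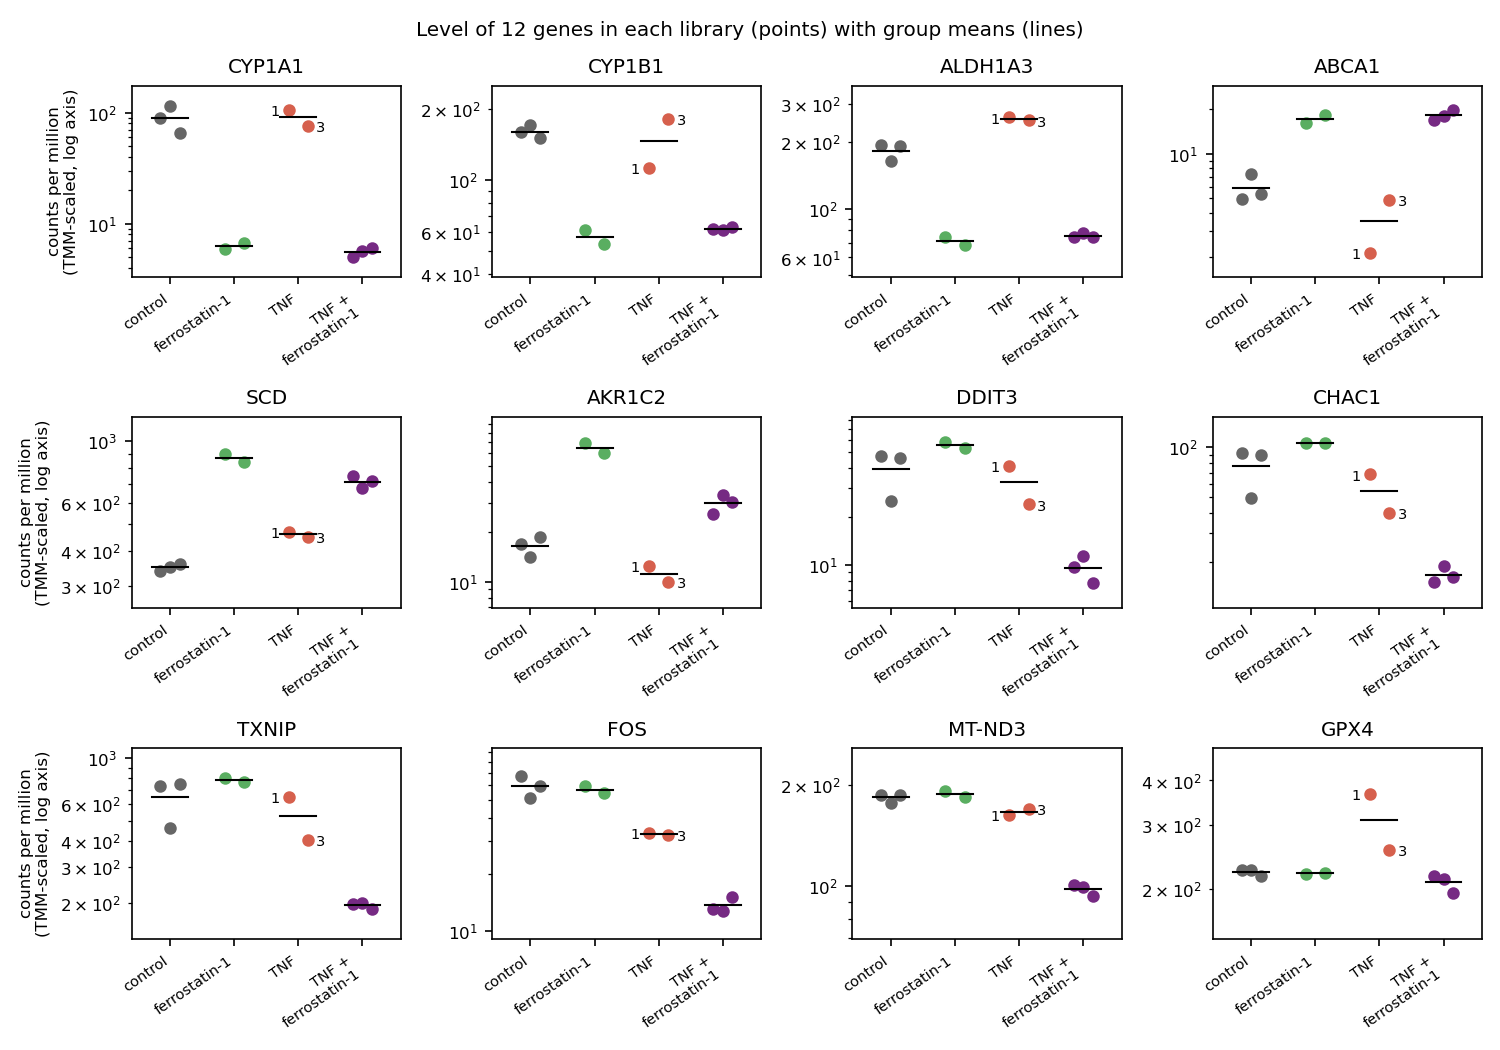
Level of 12 genes in TMM-scaled CPM on log axes, with 1 point per library, a line at each group mean, and the TNF libraries marked 1 and 3. CYP1A1, CYP1B1 and ALDH1A3 are low in both groups with ferrostatin-1, whereas DDIT3, CHAC1, TXNIP, FOS and MT-ND3 are lowest in the 3 libraries of TNF with ferrostatin-1. GPX4 is higher in TNF library 1 (367 CPM) than in every other library plotted.

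Some LXR targets and fatty acid synthesis genes rose. ABCA1, which exports cholesterol and phospholipid to apolipoproteins, stood at 2.14 and 4.90 CPM with TNF and at 16.8, 18.0 and 19.7 CPM with ferrostatin-1. The treated libraries were all above the TNF libraries, a 5.17-fold rise (log2 fold change 2.37 ± 0.30, adjusted p = 0.00406) that was 3.08 against library 1 and 1.89 against library 3. SCD, the desaturase that makes oleic acid, stood at 471 and 450.4 CPM against 747, 675 and 719 CPM. This was a tight 1.55-fold rise (log2 fold change 0.63 ± 0.07, adjusted p = 0.00343). MYLIP, a ubiquitin ligase that degrades the LDL receptor, stood at 21.2 and 21.4 CPM against 29.8, 30.5 and 31.1 CPM (log2 fold change 0.52 ± 0.10, adjusted p = 0.022). Of 12 LXR targets tested, these 3 rose and none fell, all holding against each TNF library, and the list's median was 0.19. With the length and GC offset the list had 6 rises, 1 fall and a median of 0.43. Among 29 genes of fatty acid synthesis and desaturation, 6 rose and none fell (median 0.16), and the offset gave 6 rises and 2 falls. Besides SCD, the rises of ACSL5 (0.45, adjusted p = 0.0157), which activates fatty acids to acyl-CoA, and ACACA (0.71, adjusted p = 0.0261), which commits acetyl-CoA to fatty acid synthesis, held against each library. Cholesterol synthesis and uptake genes had no rise and 2 falls among 28. The rise of SCD was smaller with TNF than without it (log2 fold change 1.31 without TNF), by -0.67 (95% interval -0.90 to -0.45, adjusted p = 0.0502).

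Aldo-keto reductases of the NRF2 list also rose. AKR1B10, which reduces lipid aldehydes, stood at 40.2 and 32.3 CPM with TNF and at 84.8, 87.1 and 78.0 CPM with ferrostatin-1. Every treated library was above both TNF libraries (log2 fold change 1.20 ± 0.14, adjusted p = 0.00258). AKR1C2, a steroid and aldehyde reductase, stood at 12.5 and 9.94 CPM against 25.8, 33.7 and 30.3 CPM (log2 fold change 1.42 ± 0.18, adjusted p = 0.00406). AKR1C1 moved by 1.45 ± 0.23 (adjusted p = 0.0102). AKR1C1, AKR1C2 and AKR1C3 are close copies, so reads may be split among them, and the length and GC offset ended the calls of AKR1C1 (adjusted p = 0.0602) and AKR1C2 (adjusted p = 0.0819). Of 37 NRF2 targets and regulators tested, 7 rose and 1 fell, 5 of the rises held against each library, and the list's median was -0.02, while the offset left 3 rises and no fall. The catalytic subunit of glutathione synthesis, GCLC, rose by 0.75 (adjusted p = 0.0324) with both libraries together, but against TNF library 3 alone it was 0.51 (adjusted p = 0.15). HMOX1, which degrades heme, was not called at -0.49 (adjusted p = 0.215).

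Several genes of the ATF4 response fell. DDIT3, which encodes the factor CHOP, stood at 41.3 and 23.8 CPM with TNF and at 9.69, 11.4 and 7.78 CPM with ferrostatin-1. All treated libraries lay below TNF library 3, the lower of the pair (log2 fold change -1.76 ± 0.27, adjusted p = 0.0102). CHAC1, which degrades glutathione, stood at 68.2 and 39.6 CPM against 15.1, 18.8 and 16.2 CPM, a 3.23-fold fall (log2 fold change -1.69 ± 0.25, adjusted p = 0.00895). ATF4 mRNA itself stood at 917 and 552 CPM against 317, 365 and 319 CPM (log2 fold change -1.14 ± 0.18, adjusted p = 0.0102). PSPH, the last enzyme of serine synthesis, fell by 0.86 (adjusted p = 0.00618). Of 42 genes on the list, 10 fell and none rose, beside 3.75% lower and 1.77% higher among all tested genes. The list's median was -0.45 beside -0.01 for all tested genes, and the 4 just named held against each TNF library. With the offset 8 fell, and CHAC1 and ATF4 were called but no longer held against each. The size depended on the library: the median of the list was -0.74 against library 1 and -0.18 against library 3. TRIB3, a pseudokinase induced by CHOP, was not called at -1.24 (adjusted p = 0.0525), and ASNS, asparagine synthetase, was not called at -0.35 (adjusted p = 0.328). Among endoplasmic reticulum chaperones and other unfolded protein response genes, 1 of 24 fell and none rose.

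Without TNF the ATF4 list gave no call in either direction by edgeR, and its median was 0.41. Some of its genes had an unadjusted p below 0.05, so the lack of calls does not show that the list was unchanged. The effect of ferrostatin-1 with TNF minus that without was -2.25 for DDIT3 (95% interval -3.08 to -1.41), -2.16 for CHAC1 (-2.94 to -1.38) and -1.31 for ATF4 (-1.86 to -0.76). None of the 3 differences was called with both TNF libraries in the model. With TNF library 1 alone DDIT3, CHAC1 and ATF4 gave -2.59, -2.50 and -1.63, and with library 3 alone -1.80, -1.72 and -0.90. Control library 2 was below the other controls for these genes (CHAC1 at 48.9 CPM against 91.8 and 89.4), and the part of that spread in the differences was not tested.

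Some immediate early genes fell as well. FOS, a subunit of the AP-1 factor, stood at 33.3 and 32.5 CPM with TNF and at 13.1, 12.8 and 15.2 CPM with ferrostatin-1. The TNF pair was close here, and the log2 fold change of -1.27 ± 0.13 (adjusted p = 0.00122) was -1.28 against library 1 and -1.25 against library 3. DUSP1, a phosphatase that switches off MAP kinases, stood at 18.0 and 16.1 CPM against 10.2, 9.24 and 8.61 CPM (log2 fold change -0.86 ± 0.15, adjusted p = 0.0142). Of 25 immediate early genes, 5 fell and none rose (median -0.48), beside 3.75% lower and 1.77% higher among all tested genes. FOS, DUSP1 and KLF6 held against each library. The offset gave 1 rise and 3 falls, and DUSP1 no longer held against each. TXNIP, which inhibits thioredoxin and glucose uptake, stood at 649 and 404 CPM against 197, 200.4 and 188 CPM. It was 2.70-fold lower (log2 fold change -1.43 ± 0.21, adjusted p = 0.00727), with no overlap. Without TNF, FOS moved by -0.06 and TXNIP by 0.27 with ferrostatin-1, and neither was called.

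**Figure D3:**
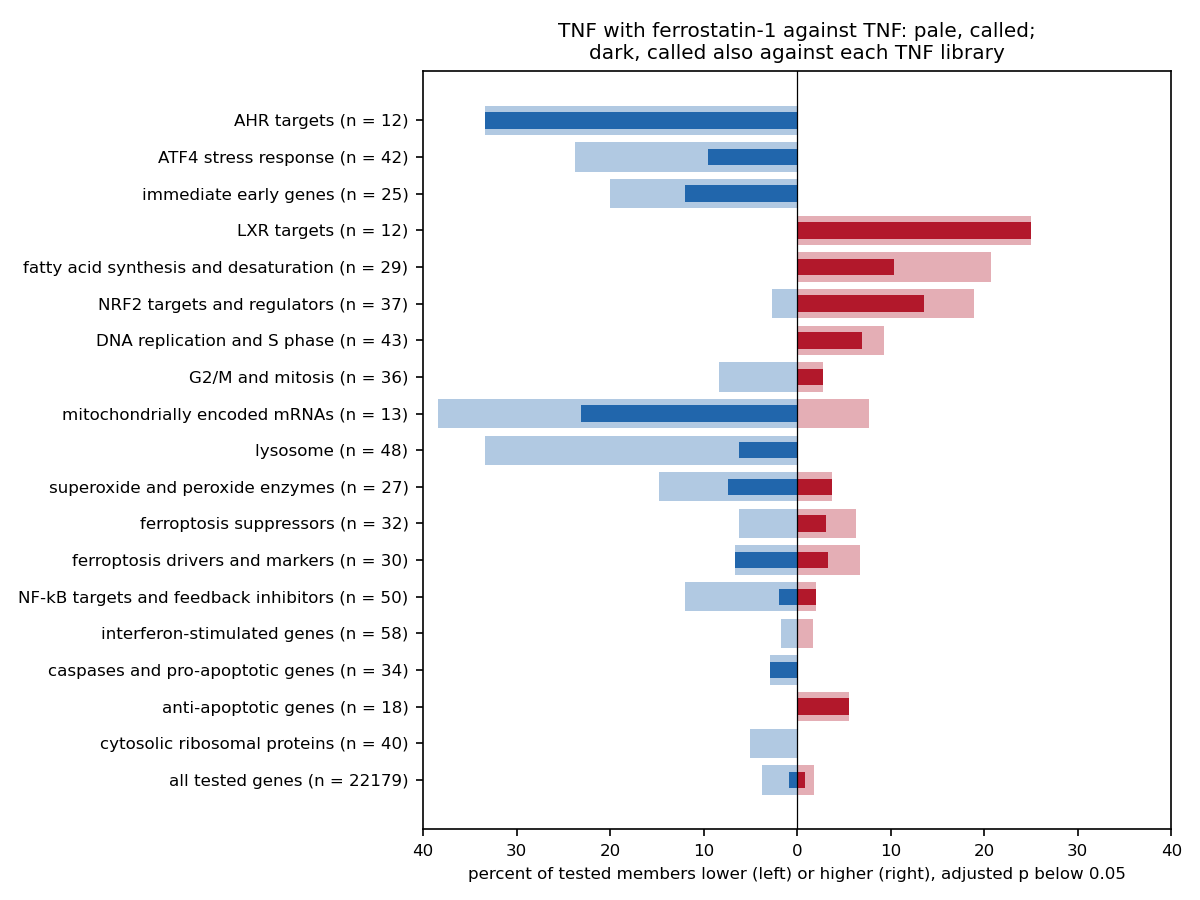
Percent of tested members that were lower (blue, left) or higher (red, right) in TNF with ferrostatin-1 than in TNF, for 18 gene lists and for all tested genes, with the number tested in brackets. Pale bars count calls with both TNF libraries and dark bars those that also hold against each. The AHR and LXR lists have no pale bar beyond the dark one, while 16 of 48 lysosome genes are lower and 3 of them hold.

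Some DNA replication genes rose on adding ferrostatin-1 with TNF, and some fell without TNF. MCM10, which helps start replication forks, stood at 10.3 and 24.0 CPM with TNF and at 36.9, 42.4 and 42.5 CPM with ferrostatin-1. The treated libraries were above both TNF libraries, by 1.98 against library 1 and 0.75 against library 3 (log2 fold change 1.24 ± 0.26, adjusted p = 0.0283). MCM6, a subunit of the replicative helicase, rose by 1.10 ± 0.23 (adjusted p = 0.0289), and CDC6, which loads that helicase, by 0.60 ± 0.11 (adjusted p = 0.017). MKI67, a proliferation marker, stood at 163 and 184 CPM against 304, 274 and 371 CPM (log2 fold change 0.87 ± 0.13, adjusted p = 0.00753). Of 43 replication and S phase genes, 4 rose and none fell with TNF (median 0.22), beside 1.77% higher and 3.75% lower among all tested genes. Of the rises, 3 held against each library. The length and GC offset gave 13 rises and no fall (median 0.31). With ferrostatin-1 alone, 15 of the same 43 fell and none rose (median -0.67), in a comparison where 0.564% of all tested genes were called. WDR76, a WD40-repeat protein, was the single gene called for the difference itself. It stood at 22.5 and 26.6 CPM with TNF and 34.7, 35.4 and 34.7 CPM with ferrostatin-1 added, whereas without TNF the control libraries ranged from 24.5 to 30.2 CPM and ferrostatin-1 at 11.6 and 13.3 CPM. Its rise with TNF did not hold against library 3 alone (0.39, adjusted p = 0.188) and was 0.07 (adjusted p = 0.808) with the offset. Its difference was 1.62 (95% interval 1.22 to 2.02, adjusted p = 0.0303), 1 call among 22179 genes (0.00451%), with 4238 at an unadjusted p below 0.05, and DESeq2 called 1331. For the replication list the median difference was 0.90 with both TNF libraries and 0.81 with library 3 alone, beside 0.04 and 0.00 for all genes. When each TNF library was used alone, 20 of 43 members were called higher with either one, beside 0.717% of all genes (0.918% were called in either direction with library 3 alone), MCM10 and MCM6 among them. These fits share all but 1 library and leave out the difference within the TNF pair, so their calls do not measure it. Among 36 genes of G2/M and mitosis, 1 rose and 3 fell, and with the offset 4 rose and 1 fell. With ferrostatin-1 alone 1 of the 36 fell and none rose. The median of this list was 0.22 with TNF and -0.50 without it. Its median difference was 0.73 with both TNF libraries and 0.57 with library 3 alone.

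Mitochondrially encoded mRNAs moved unevenly. MT-ND3, a subunit of complex I, stood at 164 and 169.9 CPM with TNF and at 101, 99.5 and 93.9 CPM with ferrostatin-1. The fall was 1.70-fold (log2 fold change -0.76 ± 0.08, adjusted p = 0.0012), at -0.74 against library 1 and -0.79 against library 3. MT-CYB, of complex III, stood at 4876 and 4360 CPM against 2879, 2628 and 3006 CPM (log2 fold change -0.70 ± 0.08, adjusted p = 0.00381). MT-ND1, of complex I, stood at 3964 and 3772 CPM against 2224, 1900.4 and 2214 CPM (log2 fold change -0.87 ± 0.14, adjusted p = 0.0108). Of the 13 mRNAs, 5 fell and 1 rose, the 3 just named held against each library, and the median of all 13 was 0.08. With the offset MT-ND1 no longer held against each. MT-CO2, of complex IV, was the rise (0.49, adjusted p = 0.0203), though not called against library 3 alone. The share of counts from mitochondrial genes was 4.68% to 4.94% with TNF and 4.48% to 4.83% with ferrostatin-1 added. With ferrostatin-1 alone no member was called or had an unadjusted p below 0.05. The mitochondrial tRNA genes MT-TM and MT-TD also fell (-3.06 and -2.74), but at 68 bases each they lie between other transcripts, and reads from neighbours could be counted there. Nuclear genes of the respiratory chain gave no edgeR call among 44 and a median of -0.20. Of the 44, 10 had an unadjusted p below 0.05, beside 6264 of all 22179 tested genes. The length and GC offset gave 1 rise and 6 falls.

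Of 48 lysosomal genes, 16 fell and none rose, beside 3.75% lower and 1.77% higher among all tested genes. The median was -0.32 beside -0.01 for all tested genes. With the length and GC offset 14 fell and none rose, with a median of -0.20, beside 5.19% of all tested genes lower. Neuraminidase NEU1, which removes sialic acid, stood at 164 and 128 CPM with TNF and at 89.8, 91.7 and 84.7 CPM with ferrostatin-1 (log2 fold change -0.72 ± 0.11, adjusted p = 0.00825). The membrane protein LAMP1 fell by 0.41 (adjusted p = 0.0162) and the protease CTSH by 0.76 (adjusted p = 0.0172). These 3 held against each TNF library, LAMP1 and CTSH not with the length and GC offset, and the other 13 falls were not called against library 3.

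Genes of the TNF response included calls in both directions, to be read beside the 1.77% higher and 3.75% lower among all tested genes. TNFAIP3, the NF-kB feedback inhibitor A20, stood at 95.3 and 115 CPM with TNF and at 113, 114 and 122 CPM with ferrostatin-1. The ranges overlapped, and the 95% interval of the log2 fold change was -0.11 to 0.40. CXCL8, the neutrophil chemokine interleukin-8, stood at 101 and 97.9 CPM against 102, 107 and 101 CPM, with an interval of -0.22 to 0.34, and with the length and GC offset it was -0.61 (adjusted p = 0.0898). Of 50 NF-kB targets and feedback inhibitors, 1 rose and 6 fell (median -0.29). SOD2, the mitochondrial superoxide dismutase, rose by 0.51 (adjusted p = 0.0102) and TNFAIP2 fell by 0.49 (adjusted p = 0.0108), both holding against each library. The offset turned SOD2 to -0.20 (adjusted p = 0.531), and left TNFAIP2 at -0.21 (adjusted p = 0.0368), no longer holding against each. PLAU, urokinase, stood at 18.5 and 18.8 CPM against 5.38, 5.92 and 4.55 CPM (log2 fold change -1.82, adjusted p = 0.0331), but against library 3 alone its adjusted p was 0.0728. Of 58 interferon-stimulated genes, 1 rose and 1 fell, with a median of -0.26 beside -0.01 for all tested genes. With the offset 1 rose, 2 fell and the median was -0.29. Of 20 genes of MHC class I presentation, 3 fell and none rose (median -0.36). With the offset 1 fell and the median was -0.12. CD74, the MHC class II invariant chain, stood at 152 and 127 CPM against 89.3, 78.3 and 87.5 CPM and held against each library (log2 fold change -0.71 ± 0.11, adjusted p = 0.00895). With the offset CD74 was -0.38 (adjusted p = 0.0196) and did not hold against each.

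The counts of called cell death genes are to be read beside the 5.52% called among all tested genes. BMF, a BH3-only protein that antagonizes BCL2, stood at 73.0 and 55.9 CPM with TNF and at 32.0, 36.0 and 35.04 CPM with ferrostatin-1. This 1.88-fold fall (log2 fold change -0.91 ± 0.12, adjusted p = 0.00565) was the only call among 34 caspases and pro-apoptotic genes, and it held against each library, while the offset gave 1 rise and 5 falls in that list. The initiator caspase CASP8 was at -0.23 (adjusted p = 0.142), and with the offset it was called at -0.68 (adjusted p = 0.0333). None of 31 TNF receptors, death receptors and adaptors was called by edgeR. Of them, 10 had an unadjusted p below 0.05, beside 6264 of all 22179 tested genes. The giant ubiquitin ligase BIRC6, an inhibitor of apoptosis, stood at 22.5 and 66.7 CPM against 143, 154 and 187 CPM. It was the 1 call among 18 anti-apoptotic genes (log2 fold change 1.86 ± 0.35, adjusted p = 0.020), and its exons span 17858 bases.

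For the ferroptosis genes, several differences rested on TNF library 1. GPX4, the lipid peroxide reductase, stood at 367 and 256 CPM with TNF and at 218, 213 and 195 CPM with ferrostatin-1. It was called lower with both libraries (log2 fold change -0.58 ± 0.13, adjusted p = 0.0303), but against library 3 alone the change was -0.30 (adjusted p = 0.124), and with the length and GC offset it was -0.22 (adjusted p = 0.0699). SLC7A11, the cystine importer, stood at 37.4 and 108.6 CPM against 109.6, 138 and 132 CPM. Of the TNF pair, library 1 was the low one, and the change was 1.76 against it and 0.22 against library 3, with no call for both together (adjusted p = 0.152). The transferrin receptor TFRC gave 2.12 against library 1 and 0.15 against library 3, and ACSL4, which builds peroxidizable phospholipids, stood at 17.3 and 58.8 CPM against 67.6, 62.6 and 63.8 CPM. BIRC3, an NF-kB-induced inhibitor of apoptosis, gave 2.58 and 0.09. AIFM2, the ubiquinone reductase FSP1, was not called (-0.30, adjusted p = 0.176), nor was the ferritin chain FTH1 (-0.38, adjusted p = 0.113). Among all tested genes, 1.77% were higher and 3.75% lower. The suppressor list (32 tested) had 2 rises and 2 falls, of which SCD held. The driver list (30 tested) likewise had 2 of each, of which NOX1, CHAC1 and DPP4 held, and the offset gave 6 rises and 3 falls.

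Many rises were of long genes. The 178 rises that held against each library had a median exon length of 9638 bases, beside 4824 for the 199 falls and 3686 for all tested genes. The 4 length groups hold only genes with a mean count of at least 50, and the second shortest ends at 4609 bases. Of the 174 such rises, 121 lay in the longest group. RANBP2, a nucleoporin, is an example at 14.3 and 55.6 CPM with TNF and 111, 125 and 153 CPM with ferrostatin-1. TNF library 1 was the lower of the pair, and the log2 fold change of 1.89 ± 0.41 (adjusted p = 0.0303) was 3.18 against library 1 and 1.22 against library 3. ALMS1, CEP350, JMJD1C and KIAA1109 behaved alike, with rises of 1.72 to 1.94. With the length and GC offset, RANBP2 was still higher, by 1.40 (adjusted p = 0.00459). Against library 3 alone, the median gene of the longest group moved by 0.01, and of the shortest by -0.07. Against library 1 alone these medians were 0.31 and -0.27. The part of exon length in single rises was not tested beyond that offset.

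Several further genes of varied function fell. NOX1, the colonic NADPH oxidase, stood at 15.2 and 15.3 CPM with TNF and at 5.30, 4.16 and 5.01 CPM with ferrostatin-1 (log2 fold change -1.66 ± 0.23, adjusted p = 0.00625). VIPR1, the receptor of vasoactive intestinal peptide, stood at 70.4 and 67.2 CPM against 31.6, 28.8 and 32.6 CPM. Its groups were tight, with a log2 fold change of -1.15 ± 0.09 (adjusted p = 0.000122). SLC6A20, a proline transporter, stood at 13.5 and 10.6 CPM against 3.07, 3.31 and 2.44 CPM (log2 fold change -2.03 ± 0.19, adjusted p = 0.000858). PLAC8 and LRRN4 were 4.97-fold and 4.42-fold lower. CEACAM5, the carcinoembryonic antigen, went the other way, from 3.04 and 2.55 CPM to 7.25, 6.39 and 6.38 CPM (log2 fold change 1.25 ± 0.20, adjusted p = 0.0102).

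Some of the largest falls were shared with 1 of the 2 libraries of ferrostatin-1 alone. HSPA6, an inducible chaperone, stood at 20.9 and 19.6 CPM with TNF and at 1.33, 2.01 and 1.26 CPM with ferrostatin-1 added (log2 fold change -3.72 ± 0.74, adjusted p = 0.0235). Without TNF it ranged from 20.5 to 21.9 CPM in control libraries and was at 22.4 CPM in ferrostatin-1 library 1 and 1.37 CPM in library 3, so the libraries of that group disagreed. With the length and GC offset HSPA6 did not hold against each TNF library. KRT81, a hair keratin, showed the same split (57.1 and 1.45 CPM without TNF), as did KRT7, a simple epithelial keratin (100.2 and 9.51 CPM). Both keratins were called lower under TNF (adjusted p = 0.0463 and 0.0369) but not against library 3 alone. Among the falls that held, IGFBP3, ANXA8, RFLNA and BEST1 were also at least 4-fold lower in ferrostatin-1 library 3 than in library 1. How often that split occurred among all tested genes was not counted. BEST1 overlaps FTH1, an abundant transcript on the opposite strand, on chromosome 11 (61950063 to 61964461 against 61959718 to 61967634 in the deposited table), and whether the counting used strand is unknown, so its value is uncertain.

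Fibroblast markers were low throughout, and 3 of 6 were called lower. The summed level of the 6 markers was 24.5 and 44.9 CPM with TNF, 2.48 to 4.50 CPM with ferrostatin-1 added, 3.78 to 13.6 CPM in control libraries and 10.0 and 16.4 CPM with ferrostatin-1 alone. COL1A1, a chain of type I collagen, stood at 14.2 and 23.3 CPM against 3.47, 1.87 and 3.81 CPM and held against each library (log2 fold change -2.62 ± 0.58, adjusted p = 0.0318), though not with the length and GC offset. COL1A2 and DCN, defining markers of the type, had no count in any library of TNF with ferrostatin-1, where 3 counts would be 0.0415 to 0.048 CPM. With TNF, COL1A2 stood at 5.35 and 9.56 CPM, and DCN was near the floor at 0.26 and 0.75 CPM. Both were also at 0 in control library 3. LUM and PDGFRB, of the same list, kept counts with ferrostatin-1 added and overlapped the TNF libraries. The part of the fibroblast markers in other results was not tested.

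Comparison with ferrostatin-1 alone, which shares no library with the TNF comparison, gave 125 called genes (0.564%), 41 higher (0.185%) and 84 lower (0.379%). Of these, 33 were called in the same direction with TNF, 16 higher and 17 lower, which is 26.4% of the 125 and 2.70% of the 1224. Called in opposite directions were WDR76 and PCNA, the replication clamp (0.52 with TNF, -0.70 without), and neither rise held against each TNF library. Among the 377 genes that held against each TNF library, 292 had the same sign without TNF, beside 11683 of all 22179 tested genes. The shared genes included CYP1A1, CYP1B1, ALDH1A3, NOX1, VIPR1 and LRRN4 among the falls, and ABCA1, SCD, MYLIP, ACSL5, CEACAM5, PTGR1, AKR1B10, AKR1C1 and AKR1C2 among the rises. Without TNF, no gene of the immediate early list was called by edgeR. Some of its genes had an unadjusted p below 0.05, so the lack of calls does not show that the list was unchanged.

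**Figure D4:**
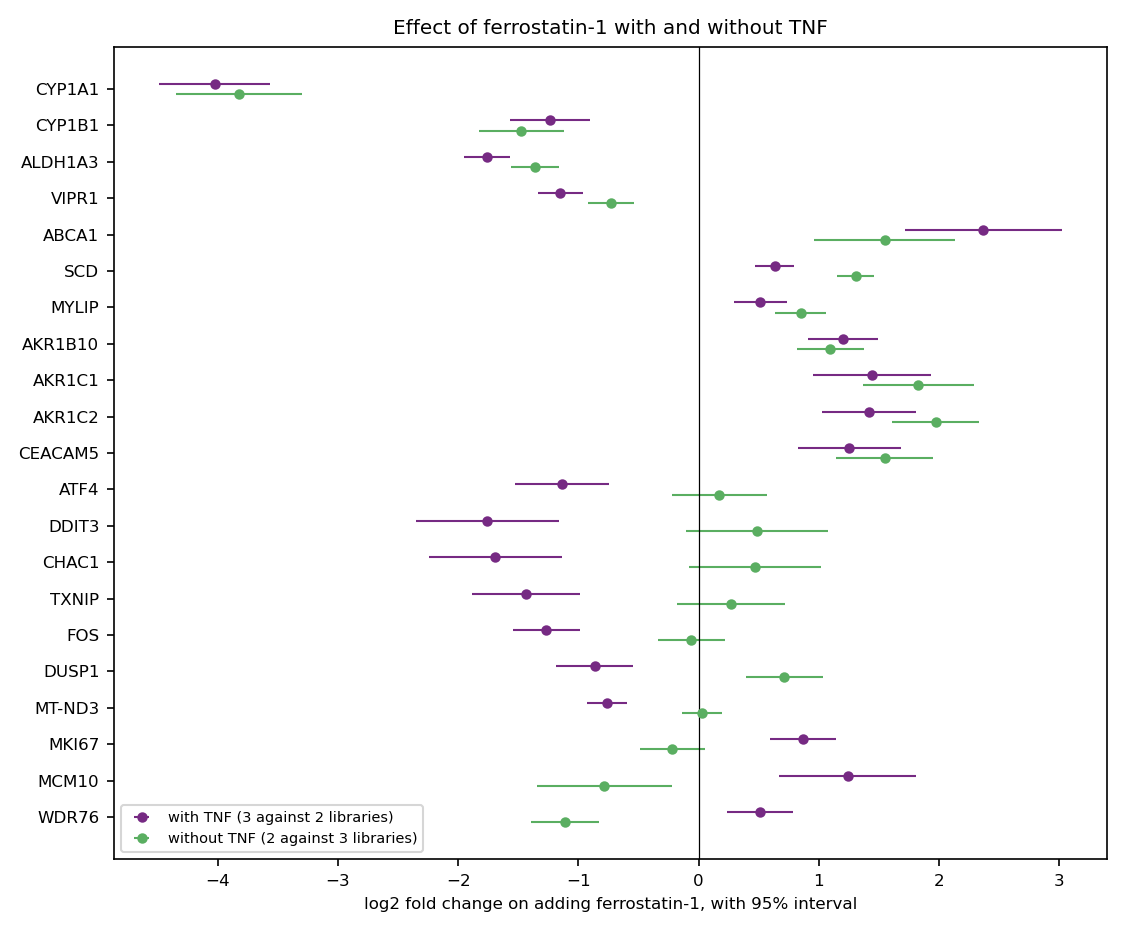
Log2 fold change on adding ferrostatin-1 with TNF (purple, 3 libraries against 2) and without TNF (green, 2 against 3) for 21 genes, with 95% intervals from the edgeR model. CYP1A1 is at -4.03 and -3.82, DDIT3 at -1.76 and 0.49, and WDR76 at 0.51 and -1.11.

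Liproxstatin-1 was given with TNF at the same labelled concentration and time, and 1 pair of compounds was compared. Levels in TNF with ferrostatin-1 differed from those in TNF with liproxstatin-1 for 170 genes (0.766%), 19 higher (0.0857%) and 151 lower (0.681%). CYP1A1 stood at 105 and 97.3 CPM with liproxstatin-1, so ferrostatin-1 was lower by -4.18 (95% interval -4.64 to -3.71, adjusted p = 2.43e-06). SLC6A20 differed by -3.36 (-3.79 to -2.93), at 28.8 and 31.5 CPM with liproxstatin-1, above both TNF libraries. MUC13, a transmembrane mucin, differed by -1.26 (-1.46 to -1.06), and SCD by -0.71 (-0.86 to -0.55), its level being 1149 and 1181 CPM with liproxstatin-1. AKR1B10 was higher with ferrostatin-1 by 0.94 (0.65 to 1.23, adjusted p = 0.00832). No difference was called for DDIT3 (-0.10, interval -0.71 to 0.50), CHAC1 (0.79, 0.21 to 1.37, adjusted p = 0.342) or MCM10 (-0.05, -0.59 to 0.50), which does not show that the compounds act alike on these genes. Leaving out any 1 library of this pair reduced the 170 calls to between 26 and 65.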

How the data were processed

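RNA of HT-29 cells was sequenced as 14 poly(A) libraries in 6 groups, per the labels' protocols. The submitters' processing notes name cutadapt 1.9, HISAT2 2.0.4, StringTie 1.3.4d, DESeq2 and edgeR, while the genome build and counting options were not given there. The authors deposited whole-number counts per gene, used for all tests, and FPKM values, which the authors deposited in 14 further columns and which were not used here. Counts per 1e6 counts (CPM) were scaled by TMM. One edgeR 4.0.16 quasi-likelihood model (R 4.3.3) held all 6 groups after filterByExpr, with Benjamini-Hochberg adjustment over 22179 genes and a threshold of 0.05; intervals are 95% and SE is the fold change over the root of F. Fits without TNF library 3 or 1 gave the changes against library 1 or 3. Alternatives used DESeq2 1.42.0, limma 3.58.1 voom, other filters and scaling, a replicate block, single libraries left out and, chosen after seeing the data, an offset for exon length and GC content (GENCODE 29 exons). The fits were tested on simulated data. Depth was 59913850 to 75838597 counts per library, and CPM near 0 carry counting error.

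The compared genes and the 50 gene lists were chosen with earlier results of these data known, and lists are described by counts and medians without a set test. Named genes were the 12 largest rises and falls of at least 2-fold that held against each library (mean count at least 50), 3 or fewer called members of each list, 6 genes each way that differed most between TNF libraries, up to 10 for the difference and for the compound comparison, and a fixed set. The text prints part of them. The TNF column numbers (1 and 3) differ from the sample titles, so these columns were assigned to the group only. The numbers were not taken as pairs. Deviations of same-numbered libraries correlated at 0.071 and 0.085, and those of differently numbered ones at -0.085 to 0.015. With 2 TNF libraries the deviations of that group are mirror images, so these values cannot decide whether the numbers mark pairs.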

Additional observations from a re-analysis of the deposited data

Results flagged for a closer look

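WDR76 stood out because the effect of ferrostatin-1 differed between cells with and without TNF, by a test of that difference. The effect was 0.51 ± 0.13 (SE) with TNF and -1.11 ± 0.13 without, a difference of 1.62 on the log2 scale (edgeR adjusted p = 0.0303). All 3 libraries with TNF and ferrostatin-1 were above both TNF libraries, and both libraries of ferrostatin-1 alone were below all 3 controls. The difference was also called with either TNF library alone, at 1.75 with library 1. It was called with the length and GC offset too, but the rise with TNF was then 0.07 (adjusted p = 0.808), and against TNF library 3 alone that rise was 0.39 (adjusted p = 0.188). The difference was not called without control library 1, without ferrostatin-1 library 1, or without any 1 of the 3 libraries of TNF with ferrostatin-1.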

How the results depend on the processing

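The number of genes called moved with most settings, and the direction of the named genes less. Of the 377 genes that held against each TNF library, at least 376 kept their sign under every other fit except the stricter filter, where 369 were tested and kept it. These fits share libraries with those that chose the 377 genes, so a kept sign says little about stability. Called in the same direction were 364 with relative log expression scaling, 367 with DESeq2, 351 with the length and GC offset and 299 without a filter. The replicate block left 208, voom 13 and the compared groups alone 6. Without library 1, 2 or 3 of TNF with ferrostatin-1, 149, 65 or 97 were called.

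For TNF with ferrostatin-1 against TNF (1224), counts were 537 without a filter, 3933 with DESeq2 (1947 higher), 14 with voom, 294 with the replicate block, 2085 with the length and GC offset (chosen after seeing the data), 11 with the groups alone, and 69 to 7373 without 1 library. Genes that held against each library (377) were 237 without a filter, 1162 with DESeq2, 14 with voom and 122 with the replicate block. Ferrostatin-1 against control (125) gave 204 with the stricter filter, 797 with DESeq2, 1604 with voom, 22 with the replicate block, 425 with the offset, 13 with the groups alone, and 13 to 295 without 1 library. The difference with minus without TNF (1) gave 17 with relative log expression scaling, 37 with the stricter filter, 1331 with DESeq2, 12 with voom, 0 with the replicate block, 286 with the offset, 0 with the groups alone, and 0 to 6147 without 1 library (217 without TNF library 1, 6147 without TNF library 3). Ferrostatin-1 against liproxstatin-1 under TNF (170) gave 105 without a filter, 464 with DESeq2, 813 with voom, 67 with the replicate block, 575 with the groups alone, and 26 to 65 without 1 library. With the offset, SOD2 changed sign to -0.20 (adjusted p = 0.531) and GAPDH to 0.0139 (adjusted p = 0.939), and neither was then called. Causes were not tested, apart from fewer genes or libraries by construction. Whether the replicate numbers mark more than a label is unknown, and why calls were lost under the block was not tested. With 2 TNF libraries, leaving out 1 of them moved the count in both directions. Depth limits levels near 0, where 3 counts are 0.0415 to 0.048 CPM in the libraries of TNF with ferrostatin-1.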

Other observations

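Further genes that held against each TNF library, picked after their values were seen, are given here by name and belong to no list. DKK1, a secreted Wnt inhibitor, stood at 13.5 and 11.9 CPM with TNF and at 5.78, 5.87 and 4.11 CPM with ferrostatin-1, so the groups did not overlap (log2 fold change -1.27 ± 0.20, edgeR adjusted p = 0.00996). CCN2, a matricellular protein, fell by 0.98 (adjusted p = 0.0152), and TGFBI, an extracellular matrix protein, by 0.75 (adjusted p = 0.00258). NNMT, which methylates nicotinamide, fell by 1.29 (adjusted p = 0.00753). MAT2A, which makes S-adenosylmethionine, fell by 1.11 (adjusted p = 0.00379) with TNF and moved by 0.18 (adjusted p = 0.667) without it. Of the Rag GTPase pathway at the lysosome, RRAGC fell by 0.76 (adjusted p = 0.00962) and FLCN by 0.72 (adjusted p = 0.0102). NUDT5, an ADP-ribose hydrolase, rose from 63.6 and 51.5 CPM to 96.2, 105 and 98.7 CPM (log2 fold change 0.80, adjusted p = 0.00727), and its level lay above both TNF libraries in all 3.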
